A study of Mus musculus with 24 samples.

Results

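The 48 genes described here serve the lysosome. They are 6 lysosomal membrane proteins, 13 cathepsins and other proteases, 11 glycosidases, 4 sulfatases, 6 lipid-degrading enzymes and cofactors, 3 transcription factors of the MiT/TFE family and 5 subunits of the V-ATPase proton pump. They were listed by name and not ranked by a measured value, but the list was chosen with earlier results of these data known. They make up 48 of the 24411 genes in the deposited tables. A member was tested in a comparison where its mean reached 10 normalized counts. The study asked how glia that carry the *SOD1G93A* transgene, a mutant human gene that causes motor neuron disease in mice, differ from wild-type (WT) glia at rest and after an inflammatory stimulus. Bulk polyA RNA was sequenced from primary microglia, sorted magnetically by Cd11b, and from immunopanned astrocytes, both from early postnatal mice and kept in serum-free medium without neurons. Microglia received PBS (quiescent) or LPS at 50 ng/mL (activated), and astrocytes received PBS (quiescent) or a mixture of 3 factors (activated): C1q (400 ng/mL), TNFα (30 ng/mL) and IL-1α (3 ng/mL). The labels give no duration of treatment.

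There were 7 groups of 3 libraries, 21 libraries in all: quiescent and LPS-activated WT microglia, LPS-activated *SOD1G93A* microglia, and quiescent and cytokine-activated astrocytes of both genotypes. The 3 quiescent *SOD1G93A* microglia libraries of the series are not analysed here, so the LPS response of *SOD1G93A* microglia could not be compared with cells of their own genotype. Depth over all genes was 2550560 to 10157188 reads per library in quiescent WT microglia, 4674300 to 8121620 in activated WT microglia and 4042840 to 11570122 in activated *SOD1G93A* microglia. In astrocytes it was 2016139 to 9258718 reads in quiescent WT, 5047999 to 6768201 in activated WT, 3292225 to 9526331 in quiescent *SOD1G93A* and 2135439 to 3929272 in activated *SOD1G93A* libraries. As a model, these cells are limited to early postnatal glia in culture, and the transgene was studied in purified cells, not in the diseased tissue.

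Lysosomes are acid compartments in which hydrolases break down proteins, sugar chains, sulfated sugars and lipids brought in by phagocytosis, endocytosis and autophagy. The V-ATPase pumps protons into the lumen, heavily glycosylated membrane proteins line the wall, and TFEB, TFE3 and MITF switch on many lysosomal genes when they enter the nucleus. Microglia, the brain's resident phagocytes, depend on this machinery to clear debris, and inherited loss of many of these enzymes causes storage disease with neuron loss.

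Differences are given as log2 fold changes of normalized counts, that is reads divided by the authors' size factor for each library within a comparison, with 1 added before the log, which understates the change of genes with low counts. They come with the standard error (SE) and an adjusted p from limma over all genes tested. A gene passed the strict limits at an adjusted p under 0.001 with more than a 2-fold change, and the wide limit at an adjusted p under 0.05 at any fold. Levels, which allow a view across comparisons, are given as RPM, the reads of a gene in every 1000000 reads of its library, or, between genes, as RPM per kb of exons, without a test. The labels do not say that replicates are separate cultures or animals, so the p-values measure the spread between samples, which may be technical. For a single value, an exact permutation test of 3 against 3 libraries could not go below 0.10. Counts of members by unadjusted p or by overlap between groups come without the share of all genes, and are not read as particular to the members. In bulk RNA, fewer cells of a type and less RNA per cell cannot be told apart.

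In 4 of the 7 groups 1 library stood apart from the other 2 of its group. The measure was the chi-square per degree of freedom of gene counts between a pair of libraries, which is near 1 when counting error alone separates them. Activated WT microglia replicate 1 gave 14.0 and 12.8 against replicates 2 and 3, which gave 1.63 between themselves. Activated *SOD1G93A* microglia replicate 3 gave 15.7 and 20.3, against 2.32 between the other pair. Among quiescent astrocytes, WT replicate 3 gave 8.97 and 6.5 against 2.03, and *SOD1G93A* replicate 1 gave 6.47 and 9.87 against 2.78. Pairs in the 3 remaining groups lay between 1.48 and 2.45.

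Markers of cell type matched the labels. All 18 of 18 microglia markers were above the floor of 3 reads in microglia, with summed levels of 14647, 15391 and 14379 RPM in quiescent WT libraries, where *Csf1r* was the most abundant. After LPS the sums were 5101, 4756 and 4738 in WT (most abundant *Itgam*) and 5259, 5172 and 6871 in *SOD1G93A* (most abundant *Csf1r*), and 13 of the 18 markers fell at the strict limits in the WT comparison. In astrocytes the same list summed to 401, 496 and 582 in quiescent WT, 674, 666 and 515 in quiescent *SOD1G93A*, 436, 594 and 409.8 in activated WT and 499.8, 368 and 399 in activated *SOD1G93A* libraries, with *Sall1* the most abundant and no marker at the floor. The 12 astrocyte markers summed to 5125, 5524 and 6353 RPM in quiescent WT, 5235, 4854 and 4277 in quiescent *SOD1G93A*, 4581, 4601 and 4598 in activated WT and 4517, 4468 and 4558 in activated *SOD1G93A* astrocytes, led by *Slc1a3*, with *Gjb6* at the floor. In microglia the astrocyte markers summed to 169.6, 156 and 168 in quiescent WT, 200.1, 159 and 235 in activated WT and 184, 231 and 139.5 in activated *SOD1G93A* libraries, led by *Gfap*.

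Markers of other lineages were present to a smaller extent. The paper's panning of astrocytes included steps to remove microglia, endothelial cells and oligodendrocyte lineage cells before culture. The 12 oligodendrocyte lineage markers summed to 3149, 3063 and 2972 RPM in quiescent WT and 3565, 3310.1 and 3345 in quiescent *SOD1G93A* astrocytes, and to 1074 to 1163 in activated astrocytes, led by *Olig1*; in quiescent WT microglia the sums were 1349, 1375 and 1389, led by *Cspg4*. The 8 neuron markers summed to 756 to 1006 in quiescent and 394 to 447 in activated astrocytes, nearly all of it *Map2*, and to 9.61 to 18.4 in microglia. The 8 endothelial markers summed to 7.90 to 14.7 in quiescent and 113 to 154 in activated astrocytes, led by *Flt1*, and to 24.7 to 75.7 in microglia, with *Cldn5* and *Esam* at the floor in every group. The 8 pericyte and fibroblast markers summed to 52.1 to 124 in astrocytes and 80.6 to 1252 in microglia. Of the 9 blood-borne myeloid markers 8 were in the tables, and they summed to 0 to 0.690 in astrocytes, all at the floor, and 4.63 to 16.7 in microglia. Oligodendrocyte lineage, neuron and endothelial markers thus moved with activation in astrocytes, and microglia markers moved with LPS in microglia. The pericyte and fibroblast sums also varied widely among microglia libraries, from 80.6 to 1252. *Cspg4* is in both the oligodendrocyte lineage list and the pericyte and fibroblast list, so its reads count in both sums. The part of all these markers in the results was not tested.

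Sex chromosome genes differed between groups. The Y-linked gene *Ddx3y* stood at 23.0, 22.0 and 24.5 RPM in quiescent WT microglia, 0.739, 0.392 and 1.07 in activated WT microglia and 0.507, 0.778 and 0.495 in activated *SOD1G93A* microglia. Quiescent and activated microglia therefore differed in sex composition, and activation and sex cannot be told apart in the microglia comparisons. In astrocytes *Ddx3y* stood at 27.8, 33.0 and 28.6 in quiescent WT, 13.1, 14.5 and 16.1 in quiescent *SOD1G93A*, 41.8, 33.2 and 36.9 in activated WT and 18.0, 18.1 and 15.5 in activated *SOD1G93A* libraries, so that genotype and sex composition cannot be told apart either. *Xist*, from the X chromosome, led the 5 sex chromosome genes in every group. The X-linked members are *Lamp2*, *Gla*, *Ids*, *Tfe3* and *Atp6ap1*.

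At rest, WT microglia gave the 48 genes a far larger share of RNA than astrocytes did. Summed levels were 64909.5, 66825 and 65821 RPM in quiescent WT microglia, a mean of 6.59% of all reads, and 5988, 6361 and 6538 in quiescent WT astrocytes, a mean of 0.630%. *Ctsd*, the main aspartic protease of the lysosome (chr7:142375911-142388038, GRCm38), made up 48.3% of the microglial sum and 14.6% of the astrocyte sum. Between these groups 43 members had every microglial library above every astrocyte library, 4 overlapped (*Gaa*, *Mcoln1*, *Ids* and *Galc*) and 1 was higher in astrocytes (*Smpd1*, acid sphingomyelinase). The share of all genes in each order is not given, so these counts do not set the members apart from other genes.

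Among the membrane proteins, *Cd68*, a glycoprotein of phagocyte lysosomes, had the largest gap: 1597, 1589 and 1624 RPM in quiescent WT microglia against 16.9, 25.3 and 27.2 in quiescent WT astrocytes, a ratio of means of 69.3. *Cd63*, a tetraspanin of late endosomes and lysosomes, had a ratio of 1.55. Ratios for the cysteine protease *Ctss*, for *Ctsd*, for *Ctsz*, a carboxypeptidase, and for *Ctsb*, a major cysteine protease, were 38.0, 34.6, 25.9 and 21.9. *Atp6v0d2*, a pump subunit of osteoclasts and macrophages, *Ctse* and *Ctsk* had at most 7 reads in any quiescent WT astrocyte library, too few for a ratio.

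Per length, *Ctsd* led in quiescent WT microglia with 14967 ± 254 RPM per kb (SD, n = 3), ahead of *Ctsb* with 2143 ± 37.6, *Ctss* with 1364 ± 30.7, *Cd68* with 1304 ± 15.1, *Ctsz* with 1251 ± 12 and *Grn*, the progranulin gene, with 1055 ± 49.8. The order of *Ctss*, *Cd68* and *Ctsz* was close, with means nearer each other than those of *Ctsd* and *Ctsb*. After LPS the order in WT microglia was *Ctsd* with 2696 ± 105, *Ctsz* with 1820.1 ± 216, *Ctsb* with 1255 ± 76.3, *Ctss* with 1043 ± 83.3 and *Grn* with 1038 ± 69.8; the last 2 lay within their spread of each other. Quiescent WT astrocytes had *Ctsd* at 433 ± 68.2, *Cd63* at 306 ± 16.2, *Psap*, the precursor of the saposin activators, at 294 ± 22.2, and *Lamp1*, a main wall protein, at 278 ± 12.4. In activated astrocytes *Cd63* and *Ctsd* were level at the top, with 653 ± 13.5 and 635 ± 68.3 in WT and 615 ± 50.7 and 594 ± 8.65 in *SOD1G93A*.

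After LPS the members together took up 30682, 28336 and 28273 RPM in WT microglia and 30157, 29853 and 34749 in *SOD1G93A* microglia, with *SOD1G93A* replicate 3, which stands apart, the highest. *Ctsd* made up 19.7% of the WT sum and 23.7% of the *SOD1G93A* sum. Without *Ctsd* the sums in WT were 33604, 34439 and 34006 at rest and 24692, 22762 and 22637 after LPS, so the other 47 members also had a lower summed level. In astrocytes the sums after the cytokines were 7492, 8134 and 7339 in WT and 7478, 7558 and 7631 in *SOD1G93A*, and at rest in *SOD1G93A* 7267, 7314 and 6350.1.

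**Figure D1:**
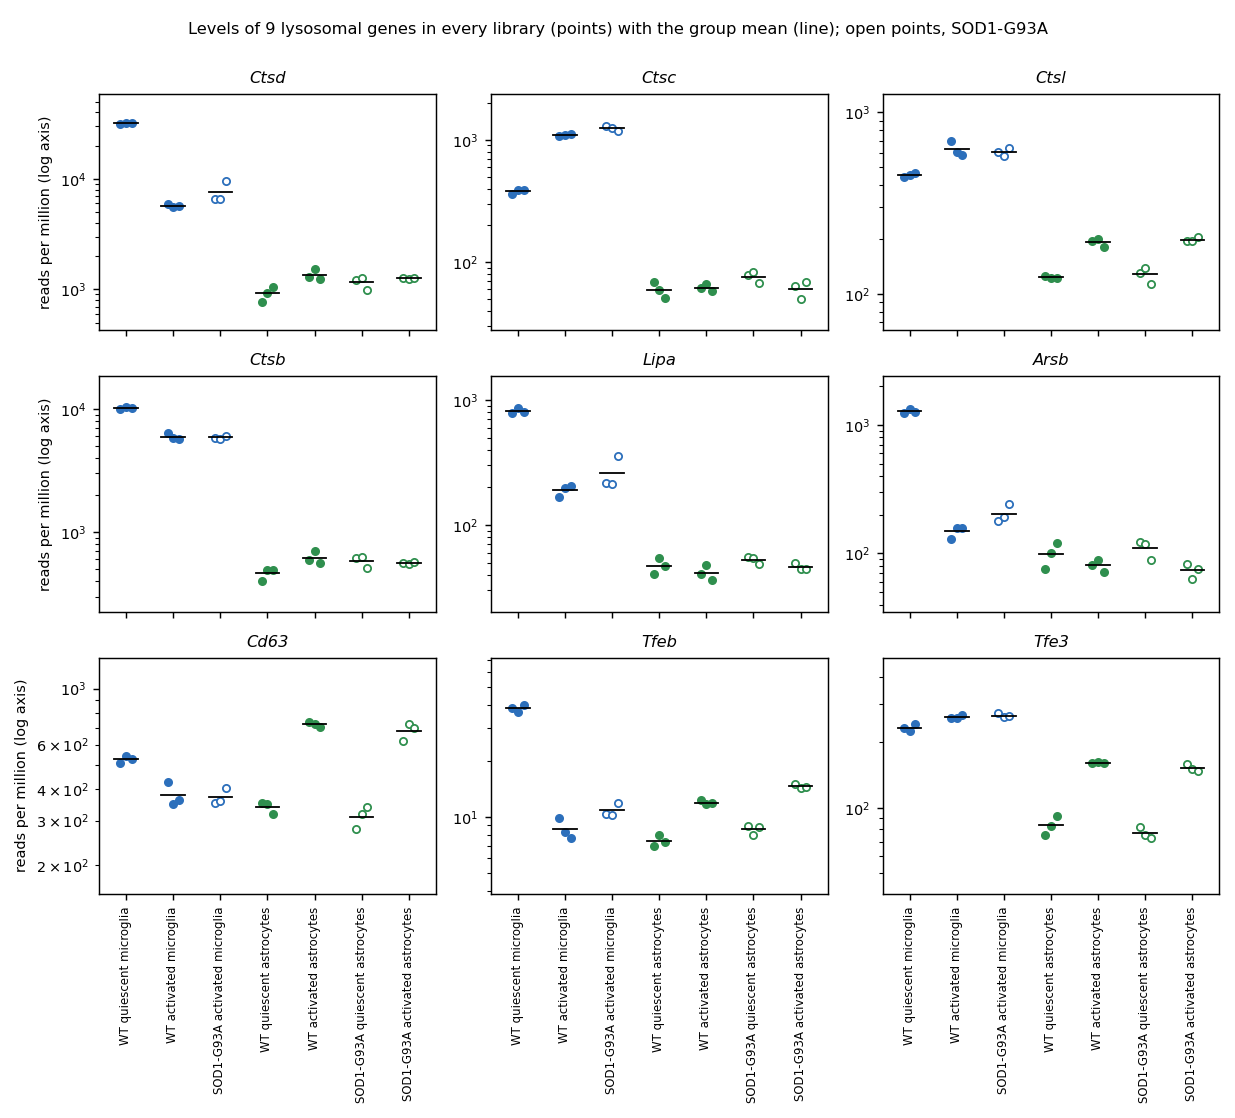
Levels of members in RPM by group, on a log axis, with 1 point for each library. *Ctsd* stands at 31306, 32386 and 31815 RPM in quiescent WT microglia and at 5989.9, 5574 and 5636 after LPS, above its level in astrocytes in every library.

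Much of the digestive set was lower in LPS-activated than in quiescent WT microglia, and a few members were higher. These groups also differed in sex composition. At the strict limits 15 of the 48 members fell and 1 rose, where 10.6% of all 10866 genes tested fell and 10.2% rose. At the wide limit 32 fell and 9 rose, against 28.3% and 28.6% of all genes, and 7 passed neither. The median log2 fold change of the members was −0.57, against 0.005 over all genes. Rescaling the libraries by quantiles left 6 rises and 37 falls at the wide limit, with *Tfe3*, *Mitf* and *Atp6v1b2* no longer passing. *Ctsk*, a collagen-degrading cathepsin, passed the filter on low values through its quiescent libraries, with a mean of 8.84 after LPS. It is counted among the 32 falls, but no conclusion is drawn from its fall.

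Among the 13 proteases, 4 fell and 1 rose at the strict limits, and 9 fell and 3 rose at the wide limit, with a median of −0.56. *Ctsd* read 161364, 173777 and 167124 normalized counts at rest and 35726, 34935 and 34307 after LPS (log2 fold change −2.26 ± 0.09, adjusted p = 8.1e-09; n = 3 in each group here and below). *Lgmn*, the asparaginyl endopeptidase that processes other cathepsins, read 9279, 9961 and 9357 at rest and 3037, 2731 and 2858 after LPS (−1.73 ± 0.08, adjusted p = 2.2e-08). Both sets of libraries were tight, and no LPS library came near a quiescent one. *Ctse*, an aspartic protease of endosomes, read 114, 88.4 and 101 at rest and 18.4, 23.4 and 16.9 after LPS (−2.32 ± 0.19, adjusted p = 2.4e-06). For *Ctsf*, a cysteine protease, counts were 267, 271 and 295 before and 66.8, 49.2 and 54.7 after (−2.28 ± 0.14, adjusted p = 2.2e-07). *Ctsc*, the dipeptidyl peptidase that activates granule proteases, moved the other way, from 1878, 2091 and 2049 to 6397, 6904 and 6761 (1.74 ± 0.08, adjusted p = 2.2e-08). The groups did not overlap for any of these 5 genes. At the wide limit *Ctsl* (0.69) and *Ctsz* (0.75) rose, and *Ctsb* (−0.56), *Ctsa*, the protective protein of other hydrolases (−0.55), *Tpp1*, a tripeptidyl peptidase (−0.78), and *Ctsh* (−0.40) fell. The value of *Ctsz* ran from 0.18 to 0.81 over the alternatives. *Ctsk* (−1.47) is also counted as a fall, but it passed the filter through its quiescent libraries, so nothing is concluded from it. *Ctss* passed neither limit, with 9563, 9675 and 9904 at rest and 9208, 8491 and 8169.8 after LPS.

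Of the 11 glycosidases, which trim sugar chains, 9 fell and 2 rose at the wide limit, with a median of −1.0, and 5 of the falls passed the strict limits. *Galc*, which removes galactose from myelin lipids, read 478, 486 and 444 at rest and 111, 109 and 124 after LPS (−2.02 ± 0.10, adjusted p = 5.2e-08). The α-mannosidase *Man2b1* read 3017, 2996 and 3033 and then 774, 726 and 794 (−1.98 ± 0.08, adjusted p = 6.5e-09). In both genes the lowest quiescent library was several times the highest LPS library. *Manba*, the β-mannosidase, read 229.9, 267 and 221 at rest and 70.5, 77.4 and 111 after LPS (−1.49 ± 0.17, adjusted p = 3.1e-05), with LPS replicate 3 the highest of its group. *Fuca1*, which cleaves fucose, read 1542, 1681 and 1533 and then 701, 627 and 616 (−1.29 ± 0.09, adjusted p = 4.8e-07). *Hexa*, the α subunit of β-hexosaminidase, read 3406, 3210.4 and 3332 and then 1755, 1619 and 1549.6 (−1.02 ± 0.08, adjusted p = 1.5e-06). Groups did not overlap in any of the 5, but *Hexa* lay just past a 2-fold change, and it dropped below it without WT quiescent microglia replicate 1 or WT activated microglia replicate 3 (log2 fold change −0.98 to −1.0 after rounding). *Gusb* (−1.0), *Glb1* (−0.89), *Gaa* (−0.58) and *Naglu* (−0.49) fell at the wide limit, while the α-galactosidase *Gla* (0.49) and the sialidase *Neu1* (0.41) rose.

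All 4 sulfatases, which strip sulfate from glycosaminoglycans and sulfatide, fell at the wide limit, with a median of −0.92. *Arsb*, which acts on dermatan and chondroitin sulfate, had the largest fall of all 48 members: 6377, 7169.7 and 6597 normalized counts at rest and 769.6, 996 and 962 after LPS (−2.89 ± 0.11, adjusted p = 5.0e-09). *Sgsh*, which acts on heparan sulfate, read 173, 206 and 172 and then 71.2, 113 and 91.2 (−1.01 ± 0.17, adjusted p = 5.2e-04). LPS replicate 1, which stands apart, was the lowest of its group for both genes. *Sgsh* no longer passed the strict limits without WT quiescent microglia replicate 1, 2 or 3 or WT activated microglia replicate 1 or 3 (log2 fold change −0.84 to −1.06, adjusted p = 6.8e-05 to 0.0044), with TMM scaling, with 5 added before the log or in limma without a trend. *Ids* (−0.83) and *Arsa* (−0.41) passed the wide limit alone.

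Among the 6 lipid-degrading enzymes and cofactors, 4 fell at the wide limit and none rose. *Lipa*, the acid lipase that frees cholesterol from its esters, read 4059, 4647 and 4191 at rest and 1004, 1242 and 1259 after LPS (−1.88 ± 0.10, adjusted p = 9.9e-08). *Ppt1*, which removes palmitate from proteins, read 1578, 1643 and 1698 and then 823, 715 and 764 (−1.10 ± 0.08, adjusted p = 1.3e-06). The libraries of each group lay close together for both genes, with no overlap. *Asah1*, acid ceramidase (−0.58), and *Smpd1* (−0.50) fell at the wide limit. *Grn* passed neither limit, with 12268, 13952 and 12735 at rest and 15591, 14838 and 14029.6 after LPS (95% interval of the log2 fold change 0.00 to 0.38), and *Psap*, with groups that overlapped, had an interval of −0.08 to 0.26.

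The 6 membrane proteins split. *Scarb2*, the receptor that carries glucocerebrosidase to the lysosome, read 1677, 1834 and 1633 at rest and 740.3, 795 and 772 after LPS (−1.15 ± 0.08, adjusted p = 7.1e-07). *Cd68* read 8234, 8525 and 8533 and then 4699, 4599.9 and 4598 (−0.86 ± 0.07, adjusted p = 2.4e-06), a fall at the wide limit in which no library overlapped. *Mcoln1*, the calcium channel of the lysosome, rose (0.45), and *Cd63* fell (−0.26). The *Cd63* call was lost without WT quiescent microglia replicate 2 or 3 or WT activated microglia replicate 2 or 3 (adjusted p = 0.088 to 0.099). It was also lost in limma without a trend and with the replicate block (adjusted p = 0.077 and 0.057). *Lamp1* and *Lamp2*, the main wall proteins, passed neither limit, with 95% intervals of 0.02 to 0.34 and −0.32 to 0.05.

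The 3 MiT/TFE factors went different ways. *Tfeb* (chr17:47737030-47792419) read 199, 198 and 210.4 normalized counts at rest and 58.8, 51.6 and 46.9 after LPS (−1.93 ± 0.13, adjusted p = 5.2e-07). *Tfe3* read 1201, 1205 and 1274 and then 1543, 1618 and 1621 (0.38 ± 0.08, adjusted p = 0.0015). *Mitf* read 386, 385 and 413 and then 422, 575 and 577 (0.40 ± 0.13, adjusted p = 0.021). *Tfeb* fell in every LPS library, whereas *Tfe3* and *Mitf* rose at the wide limit without overlap between groups. LPS replicate 1, which stands apart, was the lowest of its group for *Mitf* and *Tfe3*, and the *Mitf* call was lost without WT quiescent microglia replicate 1 or 2 or WT activated microglia replicate 2 or 3 (adjusted p = 0.068 to 0.083). Limma without a trend also lost the *Mitf* call (adjusted p = 0.055).

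Of the 5 pump subunits, 2 fell and 1 rose at the wide limit, and none passed the strict limits. *Atp6v1b2*, of the sector that burns ATP, read 1248, 1357 and 1296 at rest and 1657, 1793 and 1731 after LPS (0.41 ± 0.08, adjusted p = 0.0011). *Atp6ap1*, an accessory subunit, read 2303, 2577 and 2419 and then 1941, 1749 and 1850.4 (−0.40 ± 0.08, adjusted p = 0.0018). Neither gene's groups overlapped, and the directions were opposite. *Atp6v0d2*, of the membrane sector, read 71.6, 71.5 and 82.5 and then 41.9, 60.2 and 28.6 (−0.83 ± 0.24, adjusted p = 0.014), with wide scatter after LPS. *Atp6v0d1*, its widely expressed relative, read 840.4, 1018 and 879 and then 1059.7, 950.2 and 882 (0.08 ± 0.10, adjusted p = 0.53), with overlap. *Atp6v1a*, the catalytic subunit, read 1817, 1849 and 1967 and then 1260.2, 1757 and 1658 (−0.28 ± 0.12, adjusted p = 0.065), with LPS replicate 1 the lowest.

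Lysosomal genes outside the 48 moved in both directions under LPS. Of all 10866 genes tested in this comparison, 10.2% rose and 10.6% fell at the strict limits. At the wide limit 28.6% rose and 28.3% fell. Counts near these shares are not read as particular to a list. Of 17 other hydrolases tested of 18 listed, 2 rose and 3 fell at the strict limits and 4 rose and 6 fell at the wide limit, among them *Acp5*, an acid phosphatase (2.82), and *Pla2g15*, a phospholipase (−2.30). Of 11 other membrane and transport genes tested of 12, 1 rose and 4 fell at the strict limits, with *Abca2* at −2.28, *Laptm5* at −1.78 and *Slc11a1*, a metal transporter of phagosomes, at 1.22. Of 14 other pump subunits tested of 16, 6 rose and 3 fell at the wide limit, with *Tcirg1* at 1.65 and *Atp6v1e1* at 1.22 past the strict limits. Of 10 sorting genes 3 rose and 4 fell at the wide limit, with the sorting receptor *Sort1* at −3.19 and the mannose phosphate receptor *M6pr* at 1.29 past the strict limits. Of 3 cystatins tested of 7, inhibitors of cathepsins, *Cst7* (2.13) and *Cstb* (1.04) rose and *Cst3* (−1.13) fell at the strict limits. Among 10 regulators of the MiT/TFE factors 2 rose and 1 fell at the wide limit.

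**Figure D2:**
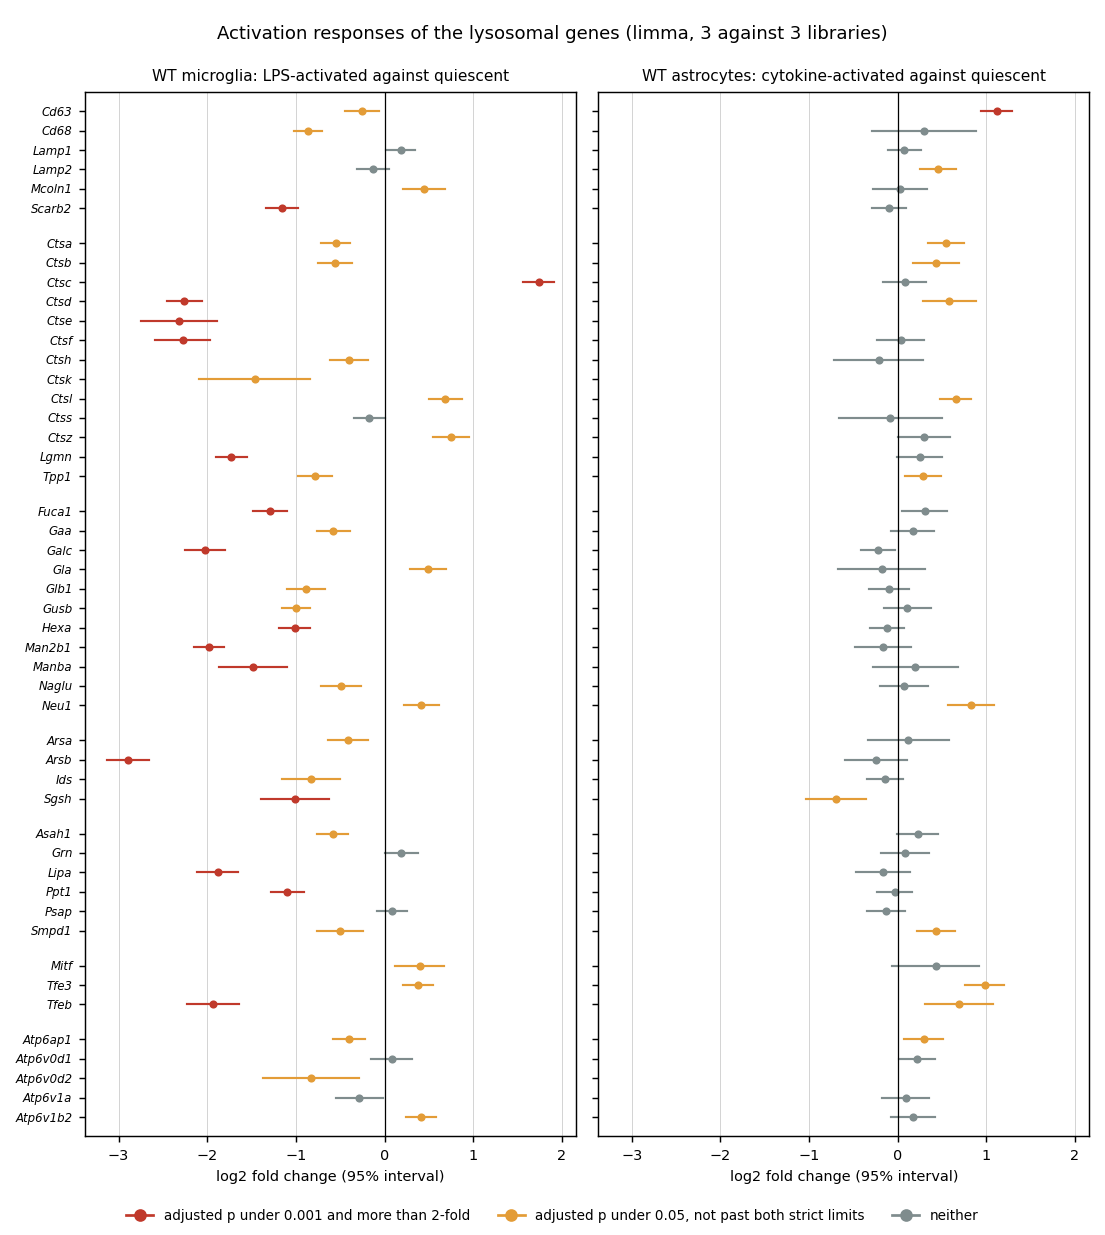
Log2 fold changes of members in the activation comparisons, as points with 95% intervals. *Ctsd* lies at −2.26 in WT microglia with LPS and at 0.58 in WT astrocytes with the cytokines, and *Ctsc* at 1.74 and 0.08.

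In WT astrocytes most members passed neither limit after the 3 factors, and most of those past the wide limit rose. Of 45 members tested (*Ctse*, *Ctsk* and *Atp6v0d2* had means below 10), *Cd63* alone passed the strict limits and no member fell at them, where 6.0% of all 12336 genes rose and 5.54% fell; DESeq2 and edgeR also called 1 member. At the wide limit 12 members rose and 1 fell, against 19.1% and 19.2% of all genes. An unadjusted p under 0.05 was found in 17 members, without the share of all genes, so nothing is read from that count. The median of the members was 0.12, against 0.014 over all genes. Leaving out quiescent WT replicate 3, which stands apart, gave 2 strict calls, the second being *Tfe3* at 1.07, and 18 wide calls.

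*Cd63* (chr10:128900989-128912822) read 1649, 1661 and 1573 normalized counts at rest and 3586, 3512 and 3507 after the cytokines (1.12 ± 0.08, adjusted p = 1.1e-06), with both groups tight and far apart. *Lamp2* also rose at the wide limit, from 1617, 1522 and 1362 to 1972, 2046 and 2143 (0.46 ± 0.09, adjusted p = 0.0021). The other 4 membrane proteins passed neither limit. *Cd68* read 79.2, 121 and 134 and then 100.3, 207 and 115, with overlap; the microglia markers summed to 401, 496 and 582 and 436, 594 and 409.8 RPM in the same libraries, highest in the library with the most *Cd68*, and their part in the result was not tested.

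Of 11 proteases tested 5 rose at the wide limit. *Ctsl* read 592, 589 and 609 at rest and 949.8, 975 and 898 after the cytokines (0.66 ± 0.08, adjusted p = 6.4e-05), with no overlap between tight groups. *Ctsd* read 3613, 4451 and 5229 and then 6264, 7316 and 6179 (0.58 ± 0.14, adjusted p = 0.0059), the opposite direction to microglia with LPS. *Ctsa* (0.55), *Ctsb* (0.43) and *Tpp1* (0.29) also rose. The call was lost for *Ctsb* without WT activated astrocytes replicate 2 (adjusted p = 0.074), and for *Tpp1* in DESeq2, in limma without a trend and without WT quiescent astrocytes replicate 1 or 2 or WT activated astrocytes replicate 1, 2 or 3 (adjusted p = 0.061 to 0.12). *Ctss* read 165, 243 and 296 and then 189, 333 and 159, overlapping, and was highest in the same library as *Cd68*.

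Among the other enzymes *Neu1* rose from 88.5, 86.6 and 82.7 to 150.4, 153 and 158 (0.83 ± 0.12, adjusted p = 2.0e-04), the single call among 11 glycosidases, and *Smpd1* rose from 282, 258 and 240.1 to 348, 350.2 and 355 (0.43 ± 0.10, adjusted p = 0.004). *Sgsh* was the member that fell, from 83.9, 97.1 and 102 to 57.9, 62.0 and 53.5 (−0.70 ± 0.15, adjusted p = 0.0037). In each of the 3 genes the groups did not overlap. The remaining glycosidases lay within −0.22 to 0.31 and passed neither limit.

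The MiT/TFE factors stood higher after the cytokines. *Tfe3* read 354, 395 and 454 at rest and 784, 782 and 798 after (0.98 ± 0.10, adjusted p = 1.7e-05). *Tfeb* read 32.6, 38.1 and 36.3 and then 59.8, 56.3 and 58.6 (0.70 ± 0.17, adjusted p = 0.0084). *Mitf* read 32.6, 49.9 and 34.1 and then 42.4, 59.9 and 54.3 (0.43 ± 0.22, adjusted p = 0.16). *Tfe3* and *Tfeb* rose without overlap, while *Mitf* overlapped between groups and passed neither limit.

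Of 4 pump subunits tested, *Atp6ap1* passed the wide limit, with 638, 747 and 818 at rest and 928, 899 and 859.7 after the cytokines (0.29 ± 0.10, adjusted p = 0.041), a call lost in DESeq2, in limma without a trend and without WT quiescent astrocytes replicate 1 or 2 or WT activated astrocytes replicate 1, 2 or 3 (adjusted p = 0.073 to 0.15). *Atp6v0d1* read 549.8, 499.9 and 464 and then 586, 561 and 608 (0.22 ± 0.09, adjusted p = 0.088). Its groups did not overlap, yet it missed the limit. *Atp6v1a* read 412, 527 and 576 and then 548, 544 and 506 (0.09 ± 0.12, adjusted p = 0.6), and *Atp6v1b2* 340.1, 404 and 454 and then 426, 457 and 457 (0.17 ± 0.11, adjusted p = 0.26), both with overlap. Of 15 other pump subunits tested outside the members 8 rose and none fell at the wide limit, with a median of 0.35. Of 16 other hydrolases 4 rose and 1 fell, the faller *Gm2a*, an activator of ganglioside breakdown, at −1.43 past the strict limits. Of 4 cystatins tested 2 rose and 1 fell, with *Cstb* at 1.02 past the strict limits. Of 11 other membrane genes 1 rose and 1 fell, and of 10 sorting genes 2 rose and 2 fell. Of 10 regulators none passed in limma. The 2 regulators with an unadjusted p under 0.05 come without the share of all genes and are not read as a result.

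The responses of the 2 cell types, LPS in microglia and cytokines in astrocytes, differed in themselves for 17 of 45 members. The difference (LPS response minus cytokine response, WT) passed the strict limits below 0 in 16 members and above 0 in 1, where 9.84% and 6.37% of all 10262 genes tested did, and edgeR also called 17. Agent and cell type cannot be told apart in it. The median difference was −0.75, against −0.03 over all genes. The largest were *Ctsd* (−2.84 ± 0.18, adjusted p = 1.8e-08), *Arsb* (−2.64 ± 0.22, adjusted p = 2.1e-07) and *Tfeb* (−2.63 ± 0.20, adjusted p = 8.1e-08). *Ctsd* and *Tfeb* fell in microglia and rose in astrocytes. *Arsb* fell in microglia and read 356, 484 and 592 normalized counts in quiescent and 396, 431 and 359 in activated astrocytes, with overlap.

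*Ctsf* differed by −2.31 ± 0.18, adjusted p = 1.5e-07, with 163, 156 and 137 in quiescent and 160.1, 144 and 162 in activated astrocytes. *Lgmn* differed by −1.98 ± 0.15, adjusted p = 7.3e-08, with astrocyte counts of 471, 562 and 627 and then 615, 712 and 636. *Man2b1* differed by −1.82 ± 0.17, adjusted p = 6.1e-07, with 163, 184 and 235 and then 169.7, 187 and 159. Astrocyte groups overlapped in all 3, and none of the 3 passed a limit there. *Galc* differed by −1.80 ± 0.13, adjusted p = 4.2e-08, with astrocyte counts of 429, 438 and 445 and then 356, 383 and 385, and *Lipa* by −1.72 ± 0.18, adjusted p = 3.1e-06, with 191, 262 and 230.5 and then 198, 229.6 and 180.2. *Ctsc*, the 1 difference above 0 (1.66 ± 0.13, adjusted p = 1.7e-07), read 324, 283 and 254 and then 298, 319 and 289.7 in astrocytes, with overlap, against its rise in microglia. *Tfe3*, which rose in both, rose more in astrocytes at the wide limit (−0.60 ± 0.13, adjusted p = 0.0014).

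Activated *SOD1G93A* microglia against quiescent WT microglia had most digestive enzymes lower, as did activated WT microglia. This comparison shares its quiescent WT libraries with the WT comparison and mixes genotype with activation, so its values are set beside those and the 2 effects cannot be told apart. At the strict limits 13 of 48 members fell and 1 rose, where 7.51% of all 10921 genes fell and 8.22% rose; at the wide limit 28 fell and 8 rose, against 26.1% and 27.8%. The median was −0.40. Leaving out *SOD1G93A* replicate 3, which stands apart, gave 16 strict and 44 wide calls; over all single libraries left out the strict count ran from 10 to 16. By quantile scaling *Ctsz* and *Atp6v1b2* lost their wide calls.

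Among the proteases, *Ctsd* read 171247, 184691 and 177333 normalized counts in quiescent WT and 43752, 43171 and 60099 in activated *SOD1G93A* libraries (−1.88 ± 0.15, adjusted p = 1.2e-05, beside −2.26 in the WT comparison). *Lgmn* read 9847, 10587 and 9928 and then 3488, 3481 and 3183 (−1.58 ± 0.07, adjusted p = 3.8e-07; −1.73 in WT). *Ctse* read 121, 93.9 and 107 and then 27.0, 30.5 and 25.0 (−1.92 ± 0.17, adjusted p = 1.8e-05; −2.32 in WT). Replicate 3 of *SOD1G93A* was the highest of its group for *Ctsd* and, among these 3 genes, for no other. *Ctsf* read 283, 288 and 313 and then 75.4, 82.6 and 132 (−1.64 ± 0.19, adjusted p = 1.1e-04; −2.28 in WT). *Ctsc* read 1993, 2222 and 2174 and then 8728, 8255 and 7459.7 (1.93 ± 0.08, adjusted p = 2.5e-07; 1.74 in WT), the single strict rise. No group overlapped in these 5, though *Ctsf* left the strict limits without WT quiescent microglia replicate 2 or 3 (adjusted p = 0.0011 to 0.0015) and in limma without a trend (adjusted p = 0.0013). *Ctsh* (−0.19) left the wide limit without WT quiescent microglia replicate 1 or 3 or *SOD1G93A* activated microglia replicate 1 or 2 (adjusted p = 0.06 to 0.12). The *Ctsh* call was also lost in limma without a trend and with the replicate block (adjusted p = 0.068 and 0.064).

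Among the enzymes for sugars, sulfate and lipids, *Arsb* read 6768, 7620.0 and 7000.5 and then 1183, 1255 and 1536 (−2.43 ± 0.10, adjusted p = 2.5e-07; −2.89 in WT). *Man2b1* read 3202, 3184 and 3218 and then 1025, 953 and 1576 (−1.47 ± 0.16, adjusted p = 8.2e-05; −1.98 in WT). *Galc* read 507, 516 and 471 and then 113, 111 and 125 (−2.09 ± 0.09, adjusted p = 3.1e-07; −2.02 in WT). Each of these genes was lower in every *SOD1G93A* library than in any quiescent WT library, with replicate 3 the highest of its group. *Fuca1* read 1636, 1786 and 1626 and then 741, 773 and 841 (−1.10 ± 0.08, adjusted p = 4.0e-06; −1.29 in WT). *Manba* read 244, 284 and 234 and then 105, 107 and 146 (−1.10 ± 0.15, adjusted p = 2.5e-04; −1.49 in WT). Both fell in every *SOD1G93A* library. *Lipa* read 4308, 4939 and 4447 and then 1459, 1399 and 2245 (−1.46 ± 0.16, adjusted p = 8.7e-05; −1.88 in WT). *Ppt1* read 1674, 1746 and 1802 and then 883, 755 and 913 (−1.04 ± 0.08, adjusted p = 1.2e-05; −1.10 in WT). Replicate 3 was the highest of the *SOD1G93A* libraries for both. Strict calls were lost for *Lipa* and *Man2b1* without WT quiescent microglia replicate 2 (adjusted p = 0.0015 and 0.0014), for *Ppt1* without *SOD1G93A* activated microglia replicate 2 (log2 fold change −0.95), and for *Manba* without WT quiescent microglia replicate 1, 2 or 3 or *SOD1G93A* activated microglia replicate 1 or 2 (adjusted p = 0.0012 to 0.0025). Limma without a trend also lost *Lipa*, *Man2b1* and *Manba* at the strict limits (adjusted p = 0.0015, 0.0015 and 0.0020).

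The receptor *Scarb2* read 1779.9, 1949.7 and 1733 in quiescent WT and 812, 815 and 980.0 in activated *SOD1G93A* microglia (−1.07 ± 0.09, adjusted p = 1.6e-05; −1.15 in WT). *Tfeb* read 211, 210.2 and 223 and then 68.7, 67.3 and 75.1 (−1.60 ± 0.11, adjusted p = 3.5e-06; −1.93 in WT). *Tfe3* read 1274, 1281 and 1352 and then 1815, 1708 and 1670.4 (0.41 ± 0.07, adjusted p = 7.4e-04; 0.38 in WT). As in the WT comparison, *Tfeb* fell and *Tfe3* rose without overlap. *Mitf* read 409.8, 409 and 438 and then 674, 701 and 576 (0.63 ± 0.09, adjusted p = 3.8e-04; 0.40 in WT), a rise at the wide limit. *Atp6v1b2* read 1324, 1442 and 1375 and then 1826, 1797 and 1655 (0.35 ± 0.07, adjusted p = 0.0026; 0.41 in WT), also a rise. *Atp6ap1* read 2444, 2739 and 2567 and then 2101, 1968 and 2452 (−0.25 ± 0.09, adjusted p = 0.043; −0.40 in WT), a fall whose groups overlapped and which was lost without WT quiescent microglia replicate 1, 2 or 3 or *SOD1G93A* activated microglia replicate 1 or 2 (adjusted p = 0.061 to 0.15). That call was also lost with no filter on low values, in limma without a trend and with the replicate block (adjusted p = 0.057, 0.0999 and 0.063). The 3 other pump subunits overlapped between groups and passed neither limit. *Atp6v0d1* read 892, 1082 and 932 and then 997, 999 and 1160.1 (0.12 ± 0.10, adjusted p = 0.32; 0.08 in WT). *Atp6v0d2* read 75.9, 76.0 and 87.5 and then 49.5, 46.9 and 86.1 (−0.44 ± 0.23, adjusted p = 0.14; −0.83 in WT), with *SOD1G93A* replicate 3 near the quiescent level. *Atp6v1a* read 1928, 1965 and 2087 and then 1940.2, 1865 and 2056 (−0.03 ± 0.07, adjusted p = 0.74; −0.28 in WT).

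No member passed either limit in any of the 3 comparisons of *SOD1G93A* with WT cells in the same state, by limma, DESeq2 or edgeR. In astrocytes the genotypes also differed in sex composition, and the 2 cannot be told apart. In quiescent astrocytes 0 of 45 members passed the strict limits, where 0% of all 12271 genes did, and 0 passed the wide limit, where 0.0570% did. An unadjusted p under 0.05 was found in 7 members, and 5 did not overlap between groups. No share of all genes is given beside these counts, so they are not a result about the members. The median was 0.09. *Cd68* read 83.5, 126 and 139 normalized counts in WT and 219.6, 213 and 147 in *SOD1G93A* libraries (0.74 ± 0.22, adjusted p = 0.39). *Ctsh* read 61.4, 77.9 and 72.5 in WT and 84.1, 117 and 93.4 in *SOD1G93A* (0.46 ± 0.18, adjusted p = 0.51), and *Ctsc* 341, 295 and 263 and 394, 407 and 330.4 (0.33 ± 0.13, adjusted p = 0.52). *SOD1G93A* replicates 1 and 2 were the highest for *Cd68*, where the summed microglia markers were also highest (674, 666 and 515 RPM in *SOD1G93A*, 401, 496 and 582 in WT, 18 of 18 markers present); their part in the result was not tested.

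In activated astrocytes 0 of 45 members passed the strict limits, where 0.645% of all 12098 genes did, and 0 passed the wide limit, where 7.27% did. Here 9 members had an unadjusted p under 0.05 and 11 did not overlap, again without the share of all genes, so nothing is read from these counts. The median was 0.05. *Galc* read 307, 331 and 330.4 in WT and 390.5, 360.0 and 395 in *SOD1G93A* libraries (0.24 ± 0.08, adjusted p = 0.061), every *SOD1G93A* library above every WT library. *Lgmn* read 530.0, 615 and 545 and 649, 628 and 629 (0.18 ± 0.07, adjusted p = 0.15), and *Mitf* 36.6, 51.7 and 46.6 and 69.3, 56.2 and 57.0 (0.44 ± 0.18, adjusted p = 0.17). Leaving out *SOD1G93A* replicate 1 gave 1 member at the wide limit, and so did the replicate block, which called *Galc*. The 95% interval of *Galc*, not adjusted for the number of genes, was 0.08 to 0.40. *Mitf*, with a larger SE, had a wider interval.

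In LPS-activated microglia 0 of 47 members passed the strict limits, where 0% of all 10679 genes did, and 0 passed the wide limit, where 0.00936% did. An unadjusted p under 0.05 occurred in 7 members and 15 did not overlap, also without the share of all genes, so these counts are not read as a result. The median was 0.14. *Gla* read 865, 999 and 896 in WT and 723, 769.6 and 639.7 in *SOD1G93A* libraries (−0.37 ± 0.11, adjusted p = 0.57). *Arsb* read 764, 988 and 962 and 1101, 1176 and 1446 (0.46 ± 0.14, adjusted p = 0.57), with WT replicate 1 the lowest and *SOD1G93A* replicate 3 the highest, the 2 libraries that stand apart. *Ids* read 259.6, 369 and 404 and 478, 438 and 497 (0.47 ± 0.16, adjusted p = 0.57). Without both of those libraries, an alternative chosen after seeing the data, 6 of 47 members passed the wide limit, where 2.85% of all genes did: *Ctsd* (0.24), *Ctsh* (0.30), *Ctsc* (0.22), *Lgmn* (0.23) and *Man2b1* (0.29) above 0 and *Gla* (−0.34) below it.

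The genotype effect did not pass the limits as different between activated and quiescent astrocytes in any member. By limma 0 of the members passed the strict limits, where 0% of all 11807 genes did, and edgeR gave 0. An unadjusted p under 0.05 was found in 5 members, without the share of all genes, so nothing is read from that count. The lowest p belonged to *Cd68* (activated minus quiescent, −1.09 ± 0.35, adjusted p = 0.37), *Ctsz* (−0.56 ± 0.21, adjusted p = 0.48) and *Ctsb* (−0.40 ± 0.16, adjusted p = 0.49). In quiescent astrocytes *Ctsz* read 312, 339 and 396 in WT and 511, 475 and 357 in *SOD1G93A*, and *Ctsb* 2004, 2444 and 2534 and 3121, 3088 and 2491; in activated astrocytes *Ctsz* read 329.8, 423 and 313 and 349, 317 and 255, and *Ctsb* 2494, 2909.6 and 2365 and 2418, 2393 and 2494.

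**Figure D3:**
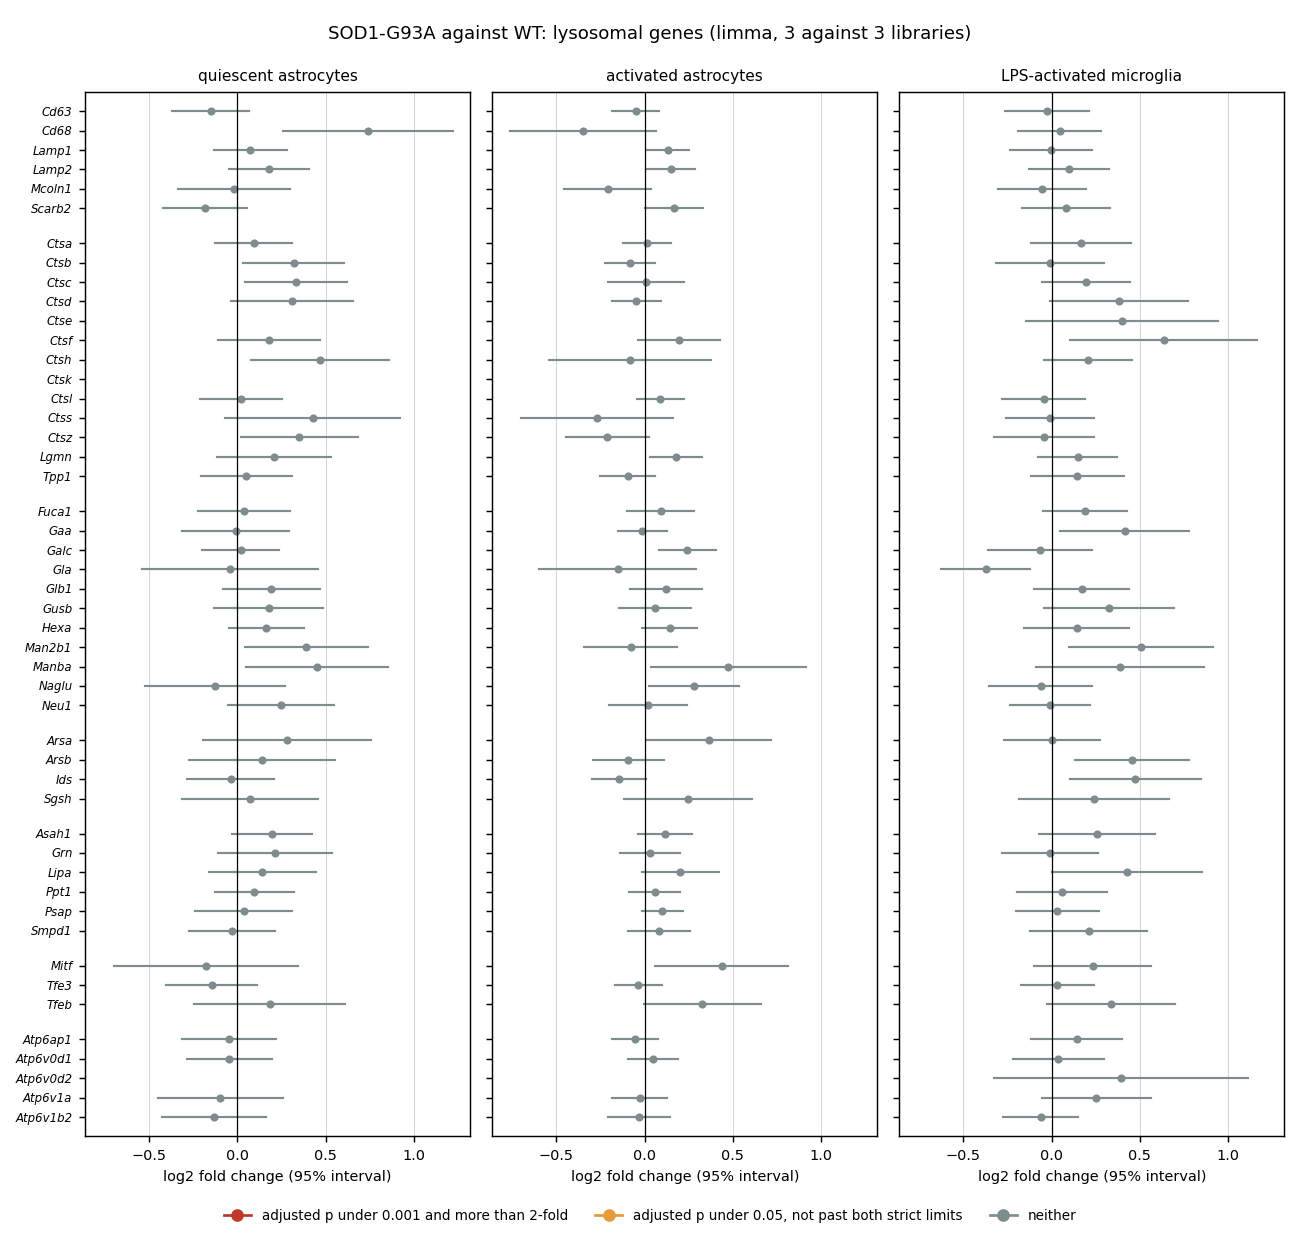
Log2 fold changes of members for genotype, *SOD1G93A* against WT, as points with 95% intervals. The medians of the members are 0.09 in quiescent astrocytes, 0.05 in activated astrocytes and 0.14 in activated microglia. Single members lie further from 0, such as *Cd68* at 0.74 in quiescent and *Manba* at 0.47 in activated astrocytes.

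Many members share a short promoter word. The MiT/TFE factors bind an element with the core CACGTG, a palindrome that reads the same on both strands, and this word was searched for in RefSeq promoters (GRCm38.p6) from 250 bases before to 50 after each gene start. Promoters were found for 42 of the 48 members; *Ctsb*, *Ctse*, *Ctsh*, *Asah1*, *Atp6v0d2* and *Atp6v1b2* had none in the table. The word stood in 15 of 50 member promoters (30.0%) and in 2349 of all 32851 promoters (7.15%), and 5 of the 50 held at least 2 matches, against 0.594% of all promoters. By role the genes with it were 5 of 10 cathepsins and proteases, 4 of 11 glycosidases, 2 of 4 sulfatases, 2 of 6 membrane proteins and 2 of 3 pump subunits, with 0 of 5 lipid enzymes and 0 of 3 MiT/TFE factors. Of the 15 members that fell at the strict limits with LPS, 14 had a promoter and 4 of these held the word (*Ctsd*, *Ctsf*, *Lgmn* and *Sgsh*). Of the other 28 genes 11 did, among them *Arsa*, *Ctsa*, *Gaa*, *Glb1* and *Naglu*, which fell at the wide limit. Over all genes with a promoter the share was 8.09%. The same word was thus found in fallers and in members that did not fall, such as *Lamp1*, *Mcoln1* and *Gla*. A match describes letters and shows no binding. Windows of 80 bases are shown for 4 members that fell at the strict limits and 4 other members, of which *Ctsa* fell at the wide limit. They let the word be seen in place, 5′ to 3′ with CACGTG in capitals: *Ctsa* chr2:164833693-164833772 on the plus strand, *Ctsd* chr7:142387883-142387962 on the minus strand, *Ctsf* chr19:4855049-4855128 on the plus strand, *Gla* chrX:134601174-134601253 on the minus strand, *Lamp1* chr8:13159081-13159160 on the plus strand, *Lgmn* chr12:102439099-102439178 on the minus strand, *Mcoln1* chr8:3500424-3500503 on the plus strand, *Sgsh* chr11:119355511-119355590 on the minus strand.
Ctsa: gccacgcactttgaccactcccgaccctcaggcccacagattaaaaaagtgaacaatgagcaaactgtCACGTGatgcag
Ctsd: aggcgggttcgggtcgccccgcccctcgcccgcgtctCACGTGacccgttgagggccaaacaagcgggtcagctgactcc
Ctsf: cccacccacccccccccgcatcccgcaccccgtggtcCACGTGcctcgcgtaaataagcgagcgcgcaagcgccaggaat
Gla: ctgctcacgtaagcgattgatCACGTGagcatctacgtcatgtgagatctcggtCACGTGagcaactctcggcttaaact
Lamp1: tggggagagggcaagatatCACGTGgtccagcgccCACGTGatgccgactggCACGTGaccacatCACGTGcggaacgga
Lgmn: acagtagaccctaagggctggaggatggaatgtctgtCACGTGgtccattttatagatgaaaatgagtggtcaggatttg
Mcoln1: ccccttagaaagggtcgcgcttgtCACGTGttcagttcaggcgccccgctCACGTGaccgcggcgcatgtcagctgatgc
Sgsh: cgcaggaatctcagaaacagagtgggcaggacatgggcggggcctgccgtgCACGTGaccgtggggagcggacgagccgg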

How the data were processed

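The deposited tables hold the authors' normalized counts per library for 6 comparisons (signal: STAR 2.7.3a to mm10, RSEM, DESeq2 size factors, R 3.6.1); their fold changes and p-values were not used. Whole reads were recovered for 100% of values (tolerance 0.01 read) and served for levels and count tests. Each comparison was fitted alone with limma 3.58.1 (intensity trend, log2 of normalized count plus 1, mean of at least 10, Benjamini-Hochberg over all genes; R 4.3.3) and checked on simulated data. Alternatives were other pseudocounts and filters, TMM, quantiles, no trend, a replicate block, single libraries left out, edgeR 4.0.16 and DESeq2 1.42.0; leaving out both libraries that stand apart was chosen after seeing the data. At the strict limits the WT LPS comparison had 2395 genes by DESeq2 and 2357 by edgeR. Gene positions are GENCODE M21 (GRCm38); promoters are RefSeq.

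The members, roles, marker lists and lists of other lysosomal genes were chosen with earlier results of these data known. Every library's value is given for members past the strict limits (where over 16, the 8 largest rises and 8 largest falls), or the 3 with the lowest p where fewer than 3 passed, and for MiT/TFE factors and pump subunits with activation; from other lists, at most 3 genes past the strict limits. *Cd68*, *Ctss* and other genes shown beyond this were chosen after their values were seen.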

Additional observations from a re-analysis of the deposited data

Results flagged for a closer look

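The LPS response of WT microglia and the cytokine response of WT astrocytes differed in 17 members, as tested by the difference itself in limma (LPS minus cytokine, log2; 3 libraries in each of 4 groups). The proteases were *Ctsd* −2.84, *Ctsf* −2.31, *Lgmn* −1.98, *Ctsa* −1.10 and *Tpp1* −1.07, with *Ctsc* 1.66 as the sole difference above 0. The enzymes for sugars and sulfate were *Arsb* −2.64, *Man2b1* −1.82, *Galc* −1.80, *Manba* −1.69, *Fuca1* −1.60 and *Gusb* −1.11. The lipid enzymes were *Lipa* −1.72 and *Ppt1* −1.06. The membrane proteins were *Cd63* −1.38 and *Scarb2* −1.06, and the transcription factor was *Tfeb* −2.63. Cell type and agent differ together in this contrast and cannot be told apart.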

How the results depend on the processing

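No member that passed a limit changed direction under any alternative run. Members past the strict limits with LPS in WT microglia numbered 14 to 16 with single libraries left out and 15 to 19 under the other alternatives, and past the wide limit 39 to 43 in both. Activated *SOD1G93A* against quiescent WT microglia gave 10 to 16 strict and 34 to 44 wide calls. The LPS minus cytokine difference gave 17 to 18 members. The cytokine response gave 1 to 2 strict calls with single libraries left out (2 without quiescent WT replicate 3; the cause was not tested) and 10 to 18 wide calls. For genotype in activated astrocytes the replicate block (libraries of the same number paired) gave 1 member at the wide limit and single libraries left out gave 0 to 1; the cause was not tested. For genotype in activated microglia leaving out both libraries that stand apart gave 6; the cause was not tested. In limma without a trend or with other pseudocounts and filters the 3 genotype counts were 0 for the members. No scaling moved the median of all genes by over 0.1. The median of the members moved further with quantile scaling, from −0.57 to −0.76 for LPS in WT microglia. For activated *SOD1G93A* against quiescent WT microglia it moved from −0.40 to −0.56.

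Same-numbered libraries of 2 groups showed no sign of pairing: their deviations from the group mean correlated across genes at −0.07 to 0.06, and at −0.40, 0.06 and −0.44 for genotype in quiescent astrocytes. In that comparison replicates 1 and 3 of opposite genotypes correlated at 0.35 and 0.52. The replicate block pairs the same numbers and does not follow this. DESeq2, TMM and quantile scaling were not run for the 2 differences between comparisons. Depth limits the scarce members: *Ctse*, *Ctsk* and *Atp6v0d2* were not tested in astrocytes. With 3 libraries a group, small genotype changes may have been missed.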
